A study of Mus musculus with 6 samples.

Results

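Cyclophosphamide (CPP) is an alkylating prodrug whose products cross-link DNA, and the levels of 10 genes that p53 is known to activate, Cdkn1a, Mdm2, Ccng1, Phlda3, Eda2r, Aen, Zmat3, Bax, Trp53inp1 and Gdf15, were followed through the cell types of the mouse bladder mucosa after CPP injury. The genes were taken as a list of named targets, chosen with earlier results of these data known. Their rows were matched by Ensembl gene ID in each table. All 10 were found in all 6 tables, among 14338 genes that the tables share and that remained once mitochondrial and ribosomal genes had been removed. Single-cell RNA-seq libraries had been made from the bladder mucosal layer of wild-type C57BL/6 mice that were 8 weeks old. Healthy mice received no CPP (replicates 1 and 2), acutely injured mice received 1 injection of 150 mg/kg and were taken 48 h later (replicates 1 and 2), and chronically injured mice received 4 injections of 75 mg/kg and were taken on day 11, which was 48 h after the last injection (replicates 1 and 2). Several mice went into each condition, and the sources used here do not say how they were divided between the 2 libraries, so the p-values below measure the spread between libraries. Dose, number of injections and time differed together between the injured groups.

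The protein p53, encoded by Trp53, is a transcription factor that is kept scarce in unstressed cells because Mdm2, itself a p53 target, marks it for degradation. DNA damage activates kinases that release p53 from Mdm2, so that the protein accumulates and binds its targets as a tetramer without a need for more Trp53 mRNA. The targets halt the cell cycle (Cdkn1a), restrain p53 again (Mdm2, Ccng1), favour cell death (Bax, Aen, Eda2r, Phlda3), bind RNA (Zmat3), respond to stress (Trp53inp1) or signal outside the cell (Gdf15). The bladder is a site of CPP toxicity because the CPP metabolite acrolein is concentrated in urine, which touches the superficial layer of the urothelium.

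The DNA element that p53 reads consists of a pair of half-sites of 10 bases, each known as the p53 half-site consensus. Promoter windows of 300 bases, from 250 bases before to 50 bases after an annotated start, were taken from a set of RefSeq starts (GRCm38.p6). That set held windows for 8 of the 10 genes. It held none for Zmat3 and Trp53inp1, which says nothing about their annotation in RefSeq itself. The half-site, which reads the same on both strands, was present in 8.36% of all 32851 windows, and a 20-base site made of 2 abutting half-sites with at most 1 mismatch was present in 0.0883%. Counted by gene, over all windows of a gene, the shares were 9.55% and 0.107% of 27025 genes. A half-site was found in a window of 5 of the 8 genes (Cdkn1a, Mdm2, Ccng1, Aen and Bax), and a 20-base site in a window of 2 of the 8 (Cdkn1a and Ccng1). The windows of Phlda3, Eda2r and Gdf15 held neither, which says only that these letters were not in these windows. The promoters of 4 genes that hold a half-site before the start are shown, because Cdkn1a, Ccng1 and Bax stood above healthy libraries in nearly every class described below and Mdm2 closes the feedback loop. Each sequence is the 250 bases that precede a start, 5′ to 3′ on the strand of the gene, with half-sites and 20-base sites in capitals.
Cdkn1a, chr17:29090729-29090978, plus strand: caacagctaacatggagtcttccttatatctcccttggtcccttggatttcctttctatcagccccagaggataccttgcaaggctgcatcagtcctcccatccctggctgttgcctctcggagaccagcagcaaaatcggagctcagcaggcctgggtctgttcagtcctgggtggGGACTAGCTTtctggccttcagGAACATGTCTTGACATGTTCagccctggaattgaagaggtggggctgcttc
Ccng1, chr11:40755287-40755536, minus strand: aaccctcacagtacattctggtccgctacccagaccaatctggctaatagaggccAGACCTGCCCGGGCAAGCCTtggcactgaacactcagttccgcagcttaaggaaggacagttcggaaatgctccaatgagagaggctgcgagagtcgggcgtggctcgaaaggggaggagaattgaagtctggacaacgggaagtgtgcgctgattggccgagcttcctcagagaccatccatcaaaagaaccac
Mdm2, chr10:117710759-117711008, minus strand: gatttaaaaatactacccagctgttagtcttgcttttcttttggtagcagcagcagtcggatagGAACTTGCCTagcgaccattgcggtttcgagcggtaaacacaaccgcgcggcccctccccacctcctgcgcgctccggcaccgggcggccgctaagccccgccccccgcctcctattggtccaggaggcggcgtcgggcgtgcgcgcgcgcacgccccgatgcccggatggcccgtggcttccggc
Bax, chr7:45466899-45467148, minus strand: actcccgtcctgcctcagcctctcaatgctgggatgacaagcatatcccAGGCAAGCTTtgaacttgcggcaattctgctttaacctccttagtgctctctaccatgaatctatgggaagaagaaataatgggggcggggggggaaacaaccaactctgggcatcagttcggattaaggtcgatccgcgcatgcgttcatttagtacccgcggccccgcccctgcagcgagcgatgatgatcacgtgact

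Cdkn1a has 2 annotated starts that lie 2790 bases apart, and the sites printed above belong to the upstream start. Its 20-base site, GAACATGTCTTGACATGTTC, begins 51 bases before the upstream start and 2841 bases before the downstream start, whose own window held no half-site. The 20-base site of Ccng1, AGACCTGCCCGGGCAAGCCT, overlaps the single half-site of that window and begins 195 bases before the start. These matches describe sequence and were not tested for binding, and sites in introns, such as the known p53 sites in the first intron of Mdm2, lie outside the windows.

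Levels are given as CPM, the UMIs of a gene relative to those of all genes over the cells of a class in 1 library, with the library totals scaled by TMM factors. Cells were grouped into basal, intermediate and superficial urothelial cells outside the cell cycle, cycling basal and cycling luminal urothelial cells, fibroblasts, myofibroblasts, endothelial cells, macrophages and NK cells, 45994 cells in all. The name NK follows the study; its markers include T cell genes. The urothelial classes together held between 4314 and 8190 cells per library, and the share of them in the cycling classes was 5.18% and 6.29% in healthy, 28.8% and 13.5% in acute and 11.4% and 9.06% in chronic libraries. None of the 10 genes was on the lists of S and G2/M genes that set the cycling classes. Small classes limit precision: chronic replicate 2 held 22 fibroblasts, chronic libraries held 28 and 24 endothelial cells, healthy replicate 2 was left out of the endothelial class with 15 cells, and NK cells could be compared only between both healthy libraries and acute replicate 2. The library pairs shared between 36 and 229 cell barcodes. The study handled its libraries in batches, which the sources used here do not assign to samples. Each gene listed for healthy replicate 1 was found in at least 8 cells and each one for acute replicate 1 in at least 6, against 1 in the other tables. Without integration these libraries shared urothelial clusters, 1 of which held 2820 and 2183 of their cells before doublets were removed and at most 57 of any other library. Between these libraries alone, the 8 genes that had UMIs in every healthy library and class were compared. All 8 were higher in the acute library over all urothelial cells, with a median log2 ratio of 1.01. The same held in each class compared but endothelial cells, where 7 were higher. The class medians ran from 0.56 in intermediate cells to 1.90 in fibroblasts. Acute replicate 1 was the higher acute library by its median in each class, as given below. Y-linked genes were detected in all 6 libraries and Xist had at most 10 UMIs in any. UMIs of urothelial marker genes were present in every stromal and immune class, and their summed level over 13 markers was 2873 CPM in healthy endothelial cells and 12049 and 12710 CPM in the chronic ones, against 18430 to 26781 CPM in urothelial cells themselves. Their part in the results was not tested, and levels of a class are set beside the urothelial levels where that bears on a result.

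Most of the genes stood higher in each injured library than in each healthy library of the same class, other than in acutely injured basal cells; this compares single libraries on the healthy side in endothelial cells and on the injured side in NK cells. Eda2r and Gdf15 had no UMI in at least 1 healthy library of some classes, so counts over tests use the 8 other genes, which had UMIs in every healthy library and class. Over the 10 classes that share no cells, the groups stood apart with the injured one higher in 65 of 79 tests of these 8 genes after acute injury and in 67 of 72 after chronic injury, where NK cells could not be compared. By class, after acute and chronic injury, the count was 3 and 6 of 8 in basal (13.8% and 15.0% of all genes tested), 5 and 7 in intermediate (13.3% and 15.9%), 5 and 8 in superficial (16.4% and 17.1%), 8 and 8 in cycling basal (19.3% and 16.9%) and 8 and 8 in cycling luminal cells (24.5% and 20.7%). It was 8 and 8 in fibroblasts (15.2% and 15.5%), 7 and 8 in myofibroblasts (15.4% and 18.2%), 7 and 8 in endothelial cells (29.3% and 31.9%), 7 and 6 in macrophages (14.1% and 16.0%) and 7 of 7 tested in NK cells (37.5%). The urothelium taken whole had 7 and 7 (18.0% and 18.9%). Among all tested genes in the same classes, the injured libraries lay above the healthy ones for 18.5% of tests (acute) and 17.9% (chronic). The 8 genes had a positive log2 fold change in 78 of 79 tests after acute injury, all but that of Zmat3 in endothelial cells, and in 72 of 72 after chronic injury, with a median of 1.23 (2.34-fold) and 1.11 (2.15-fold), while the median over all genes lay near 0 in every class. The unadjusted p was below 0.05 with a higher level in 52 of 79 and 54 of 72 tests, against 3.19% and 3.44% of all tests. After Benjamini-Hochberg adjustment over all genes of a class, edgeR's quasi-likelihood test called 5 and 2 of them, in cycling basal cells, fibroblasts, endothelial cells and NK cells, against 0.352% and 0.0459% of all tests in either direction. NK cells, with 1 injured library, gave 3 of the 5 acute calls, and without that class 2 of 72 tests were called, against 0.0471% of all tests. Both injuries were compared with the same healthy libraries, and leaving out single libraries changed individual calls, as stated with each. In cycling basal cells 0.123% of all genes were called after chronic injury and in cycling luminal cells 0.0641% and 0%, in endothelial cells 0.0861% after acute injury and in macrophages 0% and 0.0168%, and 0 of the 10 genes were among them. In myofibroblasts 0 of the genes were called after either injury, where 0.0251% (acute) and 0% (chronic) of all genes were; 6 and 8 of the 8 had an unadjusted p below 0.05, against 1.56% and 4.11% of all genes with a higher level. DESeq2 called 0 and 3 of the 10 in that class, and 0.0753% and 0.125% of all genes.

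**Figure D1:**
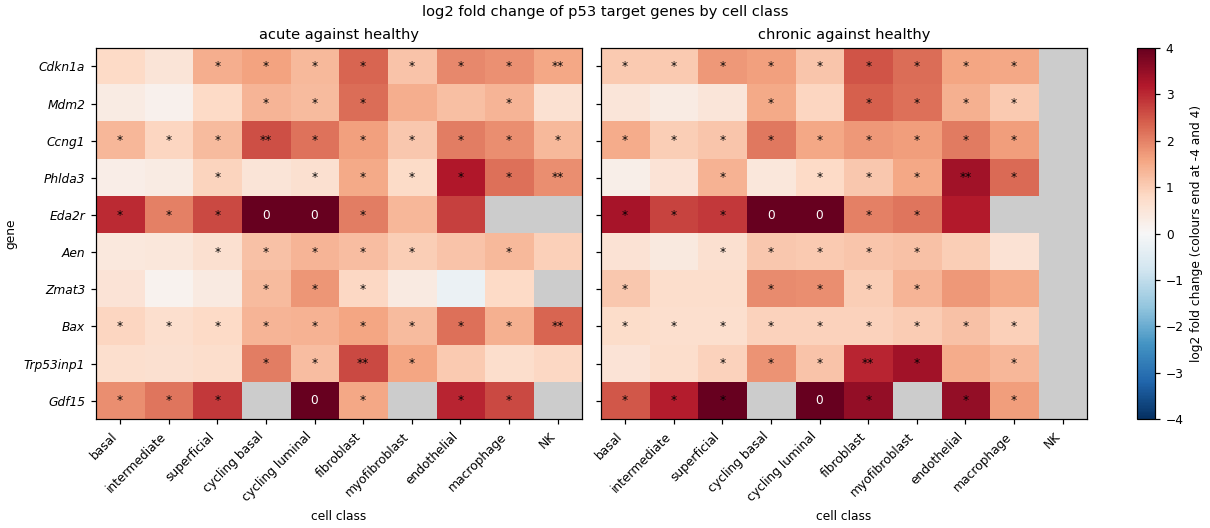
Heat map of the log2 fold change of each of the 10 genes (rows) in each cell class (columns) after acute and chronic injury against healthy libraries, from edgeR fits. An asterisk marks an unadjusted and a double asterisk an adjusted p below 0.05, pairs marked 0 had no UMIs in healthy libraries, and grey cells were not tested. Nearly the whole map is positive, with the lowest value, -0.22, for Zmat3 in acutely injured endothelial cells.

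Cdkn1a, which encodes the cyclin-dependent kinase inhibitor p21, stood above every healthy library in 9 of 10 classes after acute and 9 of 9 after chronic injury. In all urothelial cells its level was 273 and 278 CPM in healthy libraries, 815 and 415 CPM after acute injury, and 615 and 492 CPM after chronic injury. The groups did not overlap, and acute replicate 1 stood far above acute replicate 2. The cycling classes held 8.46% and 6.94% of these Cdkn1a UMIs in healthy, 57.6% and 35.7% in acute and 17.4% and 16.4% in chronic libraries, beside the larger shares of cycling cells given above, whose part in the level over all urothelial cells was not tested. Over all urothelial cells 0 of the 10 genes were called after acute injury, where 0.00724% of 13807 genes were, and 0 after chronic injury, where 0% were; 4 and 4 of the 8 had an unadjusted p below 0.05, against 5.45% and 4.26% of all genes with a higher level. DESeq2 called 5 and 3 of the 10, and 2.14% and 1.09% of all genes. For Cdkn1a in edgeR's quasi-likelihood test the log2 fold change was 1.16 ± 0.32 (SE, adjusted p = 0.347) for acute and 1.00 ± 0.32 (adjusted p = 0.559) for chronic injury. Within the healthy urothelium the level was lower in each layer nearer the lumen, with 619.6 and 397 CPM in basal, 224 and 243 CPM in intermediate and 102 and 149 CPM in superficial cells. Intermediate cells, which are outside the cell cycle, held 399 and 271 CPM after acute and 565 and 389 CPM after chronic injury. After chronic injury the superficial cells held 439.6 and 397 CPM, a log2 difference of 1.74 ± 0.32 (adjusted p = 0.461). The highest urothelial levels of Cdkn1a were those of cycling basal cells, at 737 and 435 CPM in healthy, 2111 and 1485 CPM in acute and 2086 and 1604 CPM in chronic libraries.

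Stromal and immune cells held Cdkn1a as well. Fibroblasts held 584 and 524 CPM when healthy, 3787 and 1769 CPM after acute and 3859 and 2519 CPM after chronic injury. The groups did not overlap, with log2 fold changes of 2.33 ± 0.45 (adjusted p = 0.128) and 2.53 ± 0.46 (adjusted p = 0.109). Myofibroblasts held 597 and 404 CPM when healthy, 1595 and 612 CPM after acute and 2415 and 2346 CPM after chronic injury, so that acute replicate 2 lay just above the healthy libraries. Endothelial cells held 824 CPM in the single healthy library used, 2725 and 3511 CPM after acute and 3218 and 1754 CPM after chronic injury. Macrophages held 767 and 459 CPM when healthy, 2499.8 and 1869.8 CPM after acute and 2017 and 1559 CPM after chronic injury. Each injured level in these 4 classes exceeded the level over all urothelial cells of the same library, which was at most 815 CPM. In NK cells Cdkn1a rose from 298 and 348 CPM to 944 CPM in acute replicate 2, by 1.55 ± 0.38 on the log2 scale (adjusted p = 0.00263). The 13 urothelial markers summed to 11249 and 14005 CPM in healthy NK cells and to 6918 CPM in those of acute replicate 2. The median NK cell held 7593 and 5639 UMIs in healthy libraries and 2002 in acute replicate 2. The part of these differences in the NK results of Cdkn1a, Bax and Phlda3 was not tested. That class had 5.67% of all genes called and a single injured library, which was assumed to vary like the healthy pair. Over 7 alternatives that changed the fit the adjusted p of Cdkn1a in NK cells ranged from 0.00183 to 0.196, the highest being that of DESeq2, and no fit without a healthy library was possible, since no spread between libraries would remain.

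**Figure D2:**
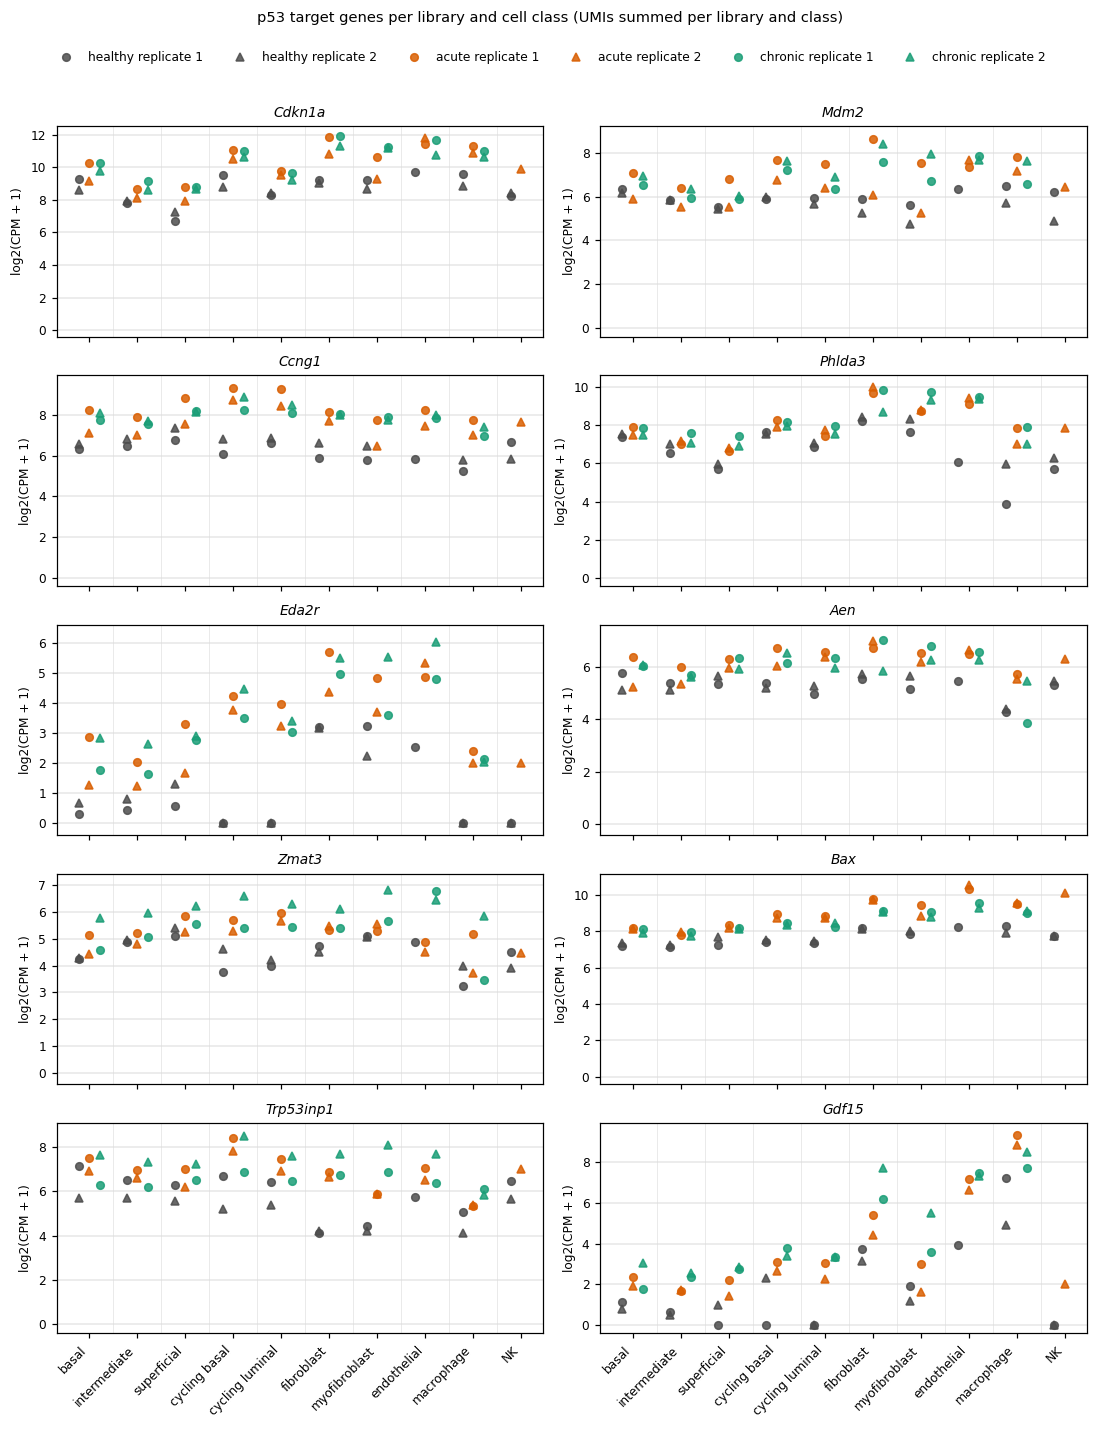
Level of each of the 10 genes as log2(CPM + 1) by cell class, with 1 point per library, colours for healthy, acute and chronic, and circles and triangles for replicates 1 and 2. In fibroblasts all 4 injured libraries lie above both healthy libraries for all 10 genes.

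Mdm2, the ubiquitin ligase that removes p53, had its smallest log2 fold changes in intermediate cells, at 0.17 (acute) and 0.33 (chronic). It was at 57.2 and 56.1 CPM in healthy, 82.7 and 45.3 CPM in acute and 61.4 and 80.9 CPM in chronic libraries. Acute replicate 2 lay below both healthy libraries, and also in basal cells and over all urothelial cells, and without acute replicate 1 the log2 fold change of Mdm2 over all urothelial cells was -0.13 in place of 0.65. In cycling basal cells Mdm2 was at 58.3 and 63.2 CPM in healthy, 205 and 108 CPM in acute and 149.6 and 195 CPM in chronic libraries, with both injured groups above the healthy one. In fibroblasts it was at 58.4 and 37.4, 393 and 66.2, and 189.7 and 337 CPM in the same order. Both injured groups stood above the healthy one in fibroblasts too, but the acute libraries differed several-fold from each other, and the log2 fold changes were 2.24 ± 0.66 (adjusted p = 0.63) and 2.38 ± 0.69 (adjusted p = 0.64).

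Ccng1, which encodes cyclin G1, a partner of protein phosphatase 2A that acts on Mdm2, stood apart from healthy libraries in all 10 classes after acute and all 9 after chronic injury. Cycling basal cells held 66.1 and 113 CPM in healthy, 649 and 419 CPM in acute and 299 and 474 CPM in chronic libraries. It rose there after acute injury by 2.57 ± 0.38 on the log2 scale (adjusted p = 0.0389), the 1 call among the 5 urothelial classes, where 0.233% of the genes tested in cycling basal cells were called. The other layer and cycling classes gave 0 calls after acute injury, and all 5 gave 0 after chronic injury, where in basal, intermediate and superficial cells 0% of all genes were called after either injury, while over these classes 24 of 40 and 27 of 40 tests of the 8 genes had an unadjusted p below 0.05, against 3.49% and 3.42% of all tests with a higher level. DESeq2 called 10 and 9 of 49 tests of the 10 genes, and 0.478% and 0.288% of all tests. Those 49 tests include Eda2r in both cycling classes and Gdf15 in cycling luminal cells. These had no healthy UMIs there and passed the low-count filter through injured libraries alone. For Ccng1 in cycling basal cells the adjusted p was 0.072 without healthy replicate 1, 0.148 without healthy replicate 2, 0.114 without chronic replicate 1 and 0.124 without chronic replicate 2. It ranged from 2.38e-12 to 0.148 over 17 alternatives that changed the fit and passed in 9 of them, with log2 fold changes of 2.21 to 3.29. With replicate number as a block the call of Ccng1 was lost, as the 5 urothelial classes gave 0 calls after acute injury. A sub-cluster was led by genes of mitosis, and 86.1% of its cells were cycling. Before doublets were removed it held 103 and 51 healthy, 795 and 312 acute and 166 and 119 chronic cells. The cycling basal class had 126 and 223, 744 and 270, and 126 and 99 cells. The 52 genes of the G2/M list summed to 7960 and 2200 CPM in healthy cycling basal cells, 9286 and 8346 CPM in acute and 5284 and 6190 CPM in chronic ones, and the part of these differences in the result was not tested. In cycling luminal cells the levels were 96.7 and 118, 614 and 351, and 276 and 354 CPM. Intermediate cells, with 88.0 and 112, 236 and 127, and 186 and 208 CPM, had the smallest log2 fold changes of Ccng1, 0.86 ± 0.31 and 0.98 ± 0.31. Outside the urothelium, fibroblasts held 58.7 and 98.5, 281 and 209.7, and 260.4 and 259 CPM. Macrophages held 37.3 and 54.9, 213 and 126, and 122 and 170.5 CPM, and the groups did not overlap in either class. Over all urothelial cells Ccng1 was at 89.6 and 112, 416 and 177, and 217 and 250 CPM. That is above the macrophage level in each library, and the part of urothelial RNA in macrophages was not tested.

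Bax, whose product permeabilises the outer mitochondrial membrane in apoptosis, was higher in each injured library than in each healthy one in all 10 classes (acute) and all 9 (chronic). In the urothelium as a whole it was at 143 and 159.6 CPM in healthy, 333 and 283 CPM in acute and 263 and 245 CPM in chronic libraries. The log2 fold changes were 1.03 ± 0.18 (adjusted p = 0.128) and 0.75 ± 0.18 (adjusted p = 0.492). Fibroblasts held 291 and 277, 865 and 833, and 539.9 and 539.8 CPM, and endothelial cells 303 CPM in healthy, 1263 and 1510.0 CPM in acute and 760.4 and 609.5 CPM in chronic libraries. In NK cells Bax rose from 212 and 213 CPM to 1080.3 CPM, by 2.34 ± 0.38 on the log2 scale (adjusted p = 2.54e-07). This held in the 7 alternatives that changed the fit, none of which left out an NK library, with adjusted p from 1.17e-07 to 0.00933. Depth and urothelial markers differed between the NK libraries, as given above. Acute libraries lay above chronic ones for Bax in 6 of 9 classes, where 17.5% of all tests did. Of these differences 0 passed the adjusted threshold in edgeR or DESeq2, with 1 class at an unadjusted p below 0.05 in edgeR.

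Aen, which encodes a nuclease that fragments DNA in apoptosis, stood above healthy libraries in 8 of 10 classes after acute and 8 of 9 after chronic injury. Over all urothelial cells it was at 42.4 and 34.9 CPM in healthy, 79.1 and 48.5 CPM in acute and 59.6 and 54.8 CPM in chronic libraries, and cycling luminal cells showed 30.7 and 37.6, 93.5 and 83.1, and 79.5 and 61.1 CPM. The groups did not overlap in either. Phlda3, which encodes a repressor of Akt signalling, was close to healthy levels in basal cells, with 165 and 182, 238 and 177, and 234 and 179 CPM, where acute replicate 2 and chronic replicate 2 lay within the healthy range. Superficial cells, which had the lowest healthy urothelial level, 51.6 and 60.8 CPM, held 97.8 and 110.3 CPM after acute and 170.4 and 121 CPM after chronic injury. In fibroblasts Phlda3 was at 297 and 343, 818 and 1025, and 903 and 416 CPM.

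Endothelial cells had the largest log2 fold changes of Phlda3 of the classes tested. Their level was 66.3 CPM in the healthy library, 544 and 678 CPM after acute and 706 and 652 CPM after chronic injury. It rose after chronic injury by 3.34 ± 0.61 on the log2 scale (adjusted p = 0.0244), where 0.327% of genes were called, while the acute value was 3.20 ± 0.60 (adjusted p = 0.0774). The chronic call was lost without chronic replicate 1 (adjusted p = 0.533) and without chronic replicate 2 (0.447), and over 13 alternatives that changed the fit the adjusted p of endothelial Phlda3 ranged from 0.000295 to 0.533, with log2 fold changes of 3.12 to 3.42. The healthy side of this comparison was 1 library of 53 cells, so the acute and chronic libraries gave the spread of the test. The urothelial level of Phlda3 was between 99.7 and 197 CPM in all libraries, below each injured endothelial value. Fibroblasts of the same libraries held 818 and 1025 CPM after acute and 903 and 416 CPM after chronic injury. Myofibroblasts held 428 and 442 CPM after acute and 861 and 642 CPM after chronic injury. The part of stromal RNA in endothelial cells was not tested. The endothelial markers summed to 5603 CPM in the healthy library and to 1601 and 3328 CPM in the chronic ones, and the part of that difference in the result was not tested. In macrophages Phlda3 was at 13.6 and 62.2 CPM in healthy, 230.0 and 126 CPM in acute and 237 and 130.2 CPM in chronic libraries. Acute replicate 2 and chronic replicate 2 lay below the urothelial level of the same library, 155 and 143 CPM. Acute replicate 1 and chronic replicate 1 lay above it. In NK cells Phlda3 rose from 51.9 and 78.2 CPM to 228 CPM, by 1.85 ± 0.46 on the log2 scale (adjusted p = 0.00392). Over 6 alternatives that changed the fit, that adjusted p ranged from 0.00275 to 0.205, the highest with a stricter filter on cells.

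Eda2r, which encodes a receptor of the TNF receptor family for the A2 form of ectodysplasin, was near absent in the healthy urothelium and low in the injured one. Over all urothelial cells it was at 0.343 and 0.717 CPM in healthy, 8.91 and 2.81 CPM in acute and 3.37 and 6.23 CPM in chronic libraries. In the cycling classes no healthy library held an UMI of it. Cycling luminal cells held 14.8 and 8.46 CPM after acute injury, at least 7.39-fold above the limit that 3 UMIs over the healthy group would set, and 7.15 and 9.60 CPM after chronic injury, at least 4.68-fold above it. Cycling basal cells held 17.7 and 12.7 CPM and 10.3 and 21.1 CPM, at least 7.64-fold and 7.42-fold above that limit. Fibroblasts carried it when healthy, at 8.19 and 7.97 CPM, and held 51.1 and 19.6 CPM after acute and 30.4 and 44.98 CPM after chronic injury. In macrophages and NK cells the injured libraries had at most 2 UMIs each, too few to compare.

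Zmat3, which encodes an RNA-binding zinc finger protein, had its largest acute fold change in cycling luminal cells. Cycling luminal cells held 14.8 and 17.6 CPM in healthy, 61.2 and 49.3 CPM in acute and 42.6 and 76.3 CPM in chronic libraries, with log2 fold changes of 1.77 ± 0.37 (adjusted p = 0.111) and 1.86 ± 0.37 (adjusted p = 0.249). Intermediate cells held 28.3 and 29.7, 36.4 and 26.98, and 32.7 and 61.4 CPM, so that the acute libraries bracketed the healthy ones. In endothelial cells it stood at 28.4 CPM in healthy and 28.4 and 21.7 CPM in acute libraries, but at 109 and 85.5 CPM after chronic injury. These endothelial levels rested on between 6 and 11 UMIs per library.

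Trp53inp1, which encodes a nuclear stress protein that promotes p53 activity and autophagy, passed the adjusted test in fibroblasts after both injuries. In fibroblasts it was at 16.4 and 17.3 CPM in healthy, 115 and 98.2 CPM in acute and 106 and 202 CPM in chronic libraries. It rose by 2.65 ± 0.39 on the log2 scale after acute (adjusted p = 0.0447) and by 3.04 ± 0.41 after chronic injury (adjusted p = 0.0384), among 0.0645% and 0.0829% of genes called. Without healthy replicate 1 the adjusted p was 0.195 and 0.123, without healthy replicate 2 the acute value was 0.179, without chronic replicate 1 they were 0.154 and 0.132, and without chronic replicate 2, the library of 22 fibroblasts, 0.148 and 0.29. The log2 fold changes in those fits were 2.61 to 2.69 and 2.64 to 3.61. Urothelial markers summed to 1300.5 and 3512 CPM in healthy, 1049 and 2618 CPM in acute and 5325 and 5604 CPM in chronic fibroblasts, and 5 fibroblast markers to 10612 and 9633, 6541 and 6355, and 7799 and 3158 CPM. The 5 myofibroblast markers summed to 610 and 484 CPM in healthy, 221 and 2082 CPM in acute and 339 and 251 CPM in chronic fibroblasts. The part of these markers in the results was not tested. Over 17 alternatives that changed the fit the adjusted p ranged from 0.000139 to 0.827 for acute and from 9.65e-06 to 0.508 for chronic injury, and the call held in 6 and 10 of them. Myofibroblasts held 20.3 and 17.3, 56.9 and 56.9, and 117 and 272 CPM, with log2 fold changes of 1.57 ± 0.42, which did not pass the adjusted test, and 3.37 ± 0.44 (adjusted p = 0.332). In the urothelium the healthy libraries already differed, with 94.1 and 50.5 CPM over all cells against 168 and 103 CPM in acute and 76.8 and 169 CPM in chronic libraries, and the chronic and healthy ranges overlapped.

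Gdf15, a secreted cytokine of the TGF-beta superfamily that acts on the brainstem to limit appetite, had its highest level in macrophages in every library. They held 149 and 29.3 CPM in healthy, 655 and 469 CPM in acute and 214 and 359.6 CPM in chronic libraries. In fibroblasts the levels were 12.5 and 7.97, 41.3 and 20.4, and 73.5 and 214 CPM. The chronic fibroblast value of 214 CPM came from the library of 22 fibroblasts, in which 9 macrophage markers summed to 1017 CPM against 27558 to 51773 CPM in chronic macrophages; without that library the log2 fold change was 2.84 ± 0.49 (adjusted p = 0.505) in place of 3.51 ± 0.57 (adjusted p = 0.054). In the whole urothelium Gdf15 was at 0.561 and 0.593, 4.52 and 2.56, and 4.93 and 5.99 CPM. Cycling luminal cells held no UMI in healthy libraries and 7.39 and 3.87 CPM after acute and 9.15 and 9.16 CPM after chronic injury, at least 3.63-fold and 5.28-fold above the limit set by 3 UMIs. In superficial cells, with 2 healthy UMIs in all, the ratio was 7.83 (95% counting interval 1.97 to 67.8) after acute and 18.3 (4.86 to 154) after chronic injury.

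Whether layers and proliferative states differ was asked directly: the difference of the injury effect between classes was tested with each library as its own block. The acute effect was larger in cycling luminal cells than in non-cycling intermediate cells for 7 of the 10 genes, where 5.77% of 13129 genes differed in either direction. The log2 differences were 1.37 ± 0.17 for Ccng1 (adjusted p = 1.62e-05), 1.10 ± 0.20 for Mdm2 (0.000806), 0.85 ± 0.16 for Cdkn1a (0.00103), 1.69 ± 0.26 for Zmat3 (0.000169), 0.98 ± 0.25 for Aen (0.0145), 0.75 ± 0.18 for Bax (0.00981) and 0.65 ± 0.19 for Trp53inp1 (0.0381). The median log2 difference was 0.92 over the 8 genes other than Eda2r and Gdf15 and 0.03 over all genes. Without healthy replicate 1 the test called 4 of the 10, the calls of Aen, Bax and Trp53inp1 being lost, without healthy replicate 2 it called 3, that of Mdm2 being lost too, and without acute replicate 1 it called 5, those of Bax and Trp53inp1 being lost. In these 3 fits the log2 difference was 0.66 to 1.28 for Aen, 0.57 to 0.75 for Bax and 0.54 to 0.77 for Trp53inp1. Ccng1, Zmat3 and Cdkn1a kept an adjusted p below 0.05 in all 14 alternatives that changed the fit. The cycling luminal class was not made up alike in the groups. A sub-cluster led by cell-cycle genes, of whose cells 97.0% were cycling, held, before doublets were removed, 15 and 10 healthy, 434 and 215 acute and 153 and 119 chronic cells, while the class had 143 and 197, 798 and 497, and 805 and 292 cells. In the class 7 basal markers summed to 2827 and 3063 CPM in healthy and 1252 and 1086 CPM in acute libraries. The sum of 6 superficial markers was 7862 and 7935 CPM in healthy and 13647 and 10486 CPM in acute libraries. The 43 genes of the S list summed to 1239 and 1003 CPM in healthy and 1925 and 1836 CPM in acute libraries. The 52 of the G2/M list summed to 4090.0 and 2351 CPM and to 4836 and 4658 CPM. The part of these differences in the result was not tested. After chronic injury the test called 0 of the 10 genes and 0.0838% of all genes, with 5 of the 8 and 7.98% of all genes at an unadjusted p below 0.05. Between superficial and basal cells no difference of effect passed the threshold: 0 of the 10 genes were called for acute (0.0851% of all genes) and 0 for chronic injury (0.0595%), with 3 and 2 of the 8, and 7.71% and 7.09% of all genes, at an unadjusted p below 0.05. The difference nearest to the threshold was that of Phlda3, whose chronic effect was larger in superficial cells by 1.13 ± 0.23 on the log2 scale (adjusted p = 0.112).

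**Figure D3:**
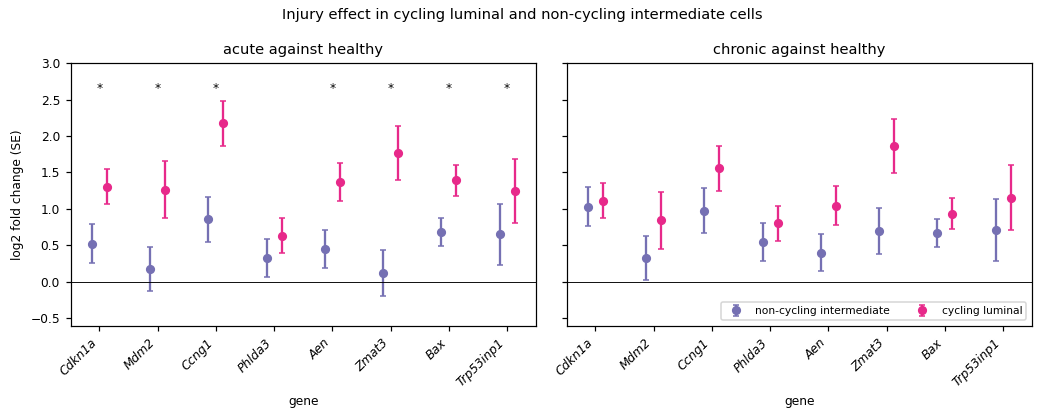
Log2 fold change against healthy libraries in cycling luminal and in non-cycling intermediate cells for each gene, after acute and after chronic injury. Bars are standard errors derived from the test statistic. An asterisk marks a difference of effect with an adjusted p below 0.05. Eda2r and Gdf15 are left out. After acute injury the cycling luminal value lies above the intermediate value for each of the 8 genes plotted, and the difference was called for 7.

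Between stroma and urothelium, the chronic effect was larger in fibroblasts than in all urothelial cells for Trp53inp1, by 2.42 ± 0.38 on the log2 scale (adjusted p = 0.00679), and for Mdm2, by 2.02 ± 0.39 (adjusted p = 0.0463), where 0.0948% of 13713 genes differed. Without chronic replicate 1 the log2 differences were 2.25 for Trp53inp1 and 2.22 for Mdm2, and without chronic replicate 2 they were 2.49 and 1.86, with 0 of the 10 genes called in either fit. Over 14 alternatives that changed the fit the call held in 8 for Trp53inp1 and in 7 for Mdm2, with adjusted p up to 0.697 and 0.992. The acute effect gave 0 calls, with 0.0510% of all genes called and 4 of the 8, and 3.45% of all genes, at an unadjusted p below 0.05. In myofibroblasts the chronic effect on Trp53inp1 exceeded that in the urothelium by 2.55 ± 0.36 (adjusted p = 0.00393), 1 of 2 genes in all (0.0144%), and this call was lost without chronic replicate 1 (adjusted p = 0.365) and without chronic replicate 2 (0.825), while it held in 9 of 13 alternatives that changed the fit. Urothelial markers summed to 1225 and 3383 CPM in healthy, 1114 and 2216 CPM in acute and 7058 and 3494 CPM in chronic myofibroblasts, and their part in the result was not tested. The acute effect there gave 0 calls of the 10, with 1 of the 8, and 3.37% of all genes, at an unadjusted p below 0.05. For Eda2r and Gdf15, outside the 8, the acute log2 differences were -1.86 ± 0.71 and -1.97 ± 0.93, with the smaller effect in myofibroblasts. Both had an unadjusted p below 0.05. In fibroblasts they were -1.26 ± 0.53 and -0.99 ± 0.51, with Eda2r alone below that p. The chronic differences were -0.84 and 0.25 in fibroblasts and -1.33 and 0.31 in myofibroblasts. None of these passed the adjusted threshold. Healthy myofibroblasts held 11 and 1 UMIs of Gdf15.

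**Figure D4:**
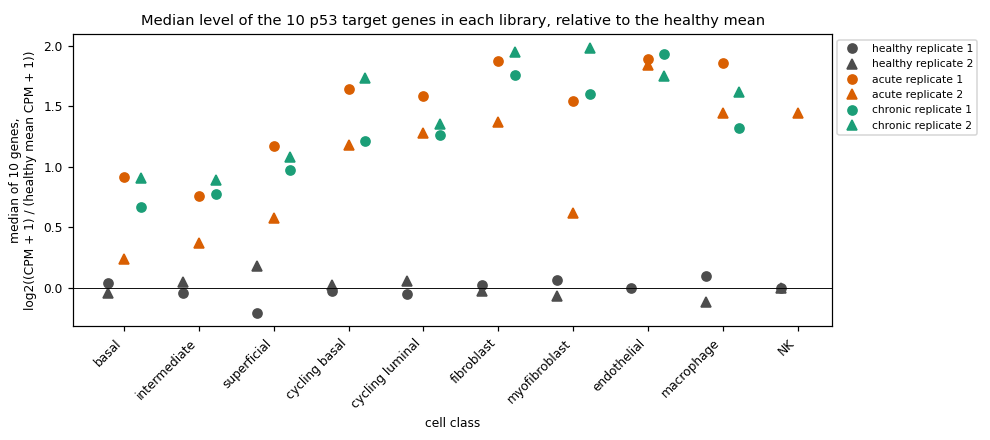
Median over the 10 genes of the log2 ratio of each library to the mean of the healthy libraries, taken as log2 of (CPM + 1), by cell class, with 1 point per library; with a single healthy library, as in endothelial cells, its ratio is 0 by construction. Acute replicate 2 lies below acute replicate 1 in every class that has both, and the lowest injured value is 0.24, in basal cells.

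In each class with both libraries, acute replicate 2 stood below acute replicate 1. In basal cells the median log2 ratio of the 10 genes to the healthy mean was 0.91 in acute replicate 1 and 0.24 in acute replicate 2, and in myofibroblasts it was 1.54 and 0.62. In fibroblasts it was 1.87 and 1.37, and chronic replicates 1 and 2 stood at 1.75 and 1.94. In healthy libraries these medians stayed between -0.21 and 0.18 in every class. Each healthy library is part of the mean it is set against, so these values do not measure the spread between healthy libraries. Acute and chronic libraries were compared directly as well: 0 of 72 tests of the 8 genes passed the adjusted threshold in edgeR, where 0% of all tests did, and 6 had an unadjusted p below 0.05, against 5.02% of all tests. DESeq2 called 0 in this comparison as well, and the median log2 difference in edgeR was -0.08. Gdf15, outside the 8, had both chronic libraries above both acute ones in 5 of 7 classes and the reverse in 1. Of all tests 16.1% and 17.5% stood so. Its log2 difference ran from -1.98 in fibroblasts to 0.96 in macrophages, and 0 of the 7 passed the adjusted threshold. Chronic levels were above acute ones in myofibroblasts for Trp53inp1, Cdkn1a, Zmat3 and Phlda3, with log2 differences of -1.80, -1.11, -0.98 and -0.79 for acute minus chronic, where 19.2% of all genes tested in that class had both chronic libraries above both acute ones, and none of these differences passed the adjusted threshold.

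**Figure D5:**
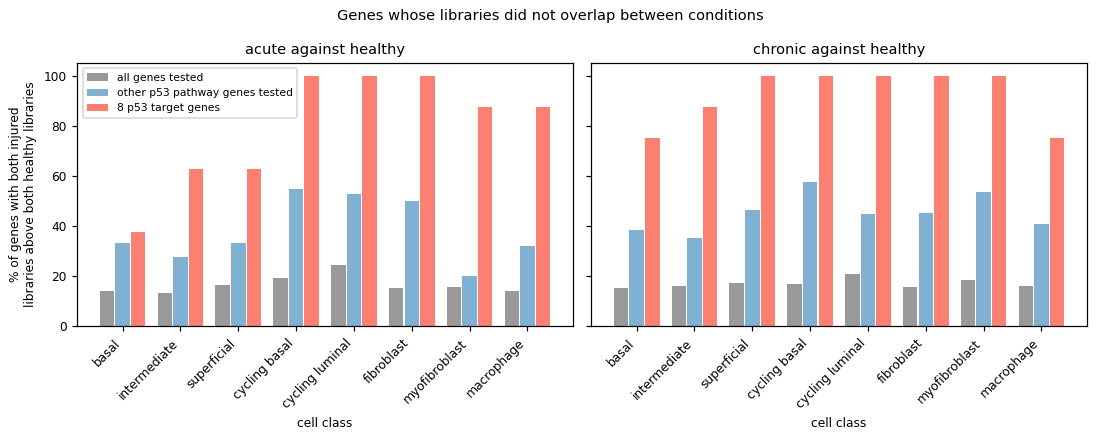
Percentage of genes whose injured libraries both lie above both healthy libraries, by cell class and injury, for all genes tested (grey), the tested genes of a list of 40 other p53 pathway genes (blue) and the 8 genes other than Eda2r and Gdf15 (red), in the 8 classes with all 6 libraries. All 8 genes lie above in both cycling classes and in fibroblasts after either injury, where between 15.2% and 24.5% of all genes tested do.

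The cells that carried these transcripts were counted after each cell had been thinned to 3000 UMIs. In the urothelium 8.91% and 9.36% of healthy cells held UMIs of 3 or more of the 10 genes, against 37.9% and 17.3% of acute and 31.4% and 28.4% of chronic cells. In fibroblasts the shares were 26.0% and 23.0%, 89.0% and 78.4%, and 86.5% and 90.9%. The shares were higher in each injured library than in both healthy ones in both cell types. The 3000 UMIs were drawn from all genes of a table, also those left out of the CPM. The genes used held 51.2% and 52.6% of UMIs in healthy, 55.9% and 58.3% in acute and 65.1% and 54.2% in chronic libraries. The part of this difference in the shares was not tested. Thinning kept 868 of 1333 fibroblasts in healthy replicate 2, 676 of 1140 in acute replicate 2 and 251 of 1057 in chronic replicate 1, and all in the other libraries, so these shares rest on the deeper cells. Without thinning, where depth differs between libraries, the shares were 62.7% and 53.5% (healthy), 86.6% and 73.1% (acute) and 66.7% and 81.0% (chronic) in the urothelium and 45.7% and 25.1%, 97.8% and 78.9%, and 84.4% and 95.5% in fibroblasts. For Cdkn1a alone, 45.8% ± 9.86 (SD, n = 2) of healthy fibroblasts, 90.4% ± 5.84 of acute and 95.9% ± 0.68 of chronic fibroblasts held an UMI at that depth, and 52.2%, 91.6% and 96.7% did without thinning. No class in these tissues is known to lack Cdkn1a, so none served as a blank for free RNA.

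Other genes of the p53 pathway were followed as a list of 40. It was not limited to genes with UMIs in every healthy library. Some could therefore pass the low-count filter through injured libraries alone. In fibroblasts 27 of 40 had a positive log2 fold change after acute and 29 of 40 after chronic injury, with medians of 0.41 and 0.60, and 1 was called each time, where 50% and 45.9% of all genes were positive and 0.0645% and 0.0829% called. In cycling basal cells 29 and 26 of 33 were positive, with medians of 0.88 and 0.86, and 2 were called each time, where 48.2% and 51.2% of all genes were positive and 0.233% and 0.123% called. The called genes were Dcxr (in both classes), which encodes a carbonyl reductase of xylulose metabolism, and Ak1 (in cycling basal cells), which encodes adenylate kinase 1. Dcxr was at 32.0 and 53.7 CPM in healthy, 234 and 342 CPM in acute and 303 and 304 CPM in chronic libraries in fibroblasts and rose by 2.75 ± 0.39 after acute (adjusted p = 0.0447) and 2.82 ± 0.40 after chronic injury (adjusted p = 0.0414). Ak1 was at 6.30 and 17.1 CPM in healthy, 129.8 and 111 CPM in acute and 111 and 117 CPM in chronic libraries in cycling basal cells and rose there by 3.31 ± 0.40 (adjusted p = 0.0196) and 3.23 ± 0.41 (adjusted p = 0.0288). Dcxr was also higher in chronically injured endothelial cells, by 3.45 ± 0.65 on the log2 scale, against a single healthy library of 53 cells. Urothelial markers were higher in those chronic libraries too, as given above, and their part was not tested. Among urothelial cells as a whole, 26 and 31 of the 40 were positive with medians of 0.26 and 0.29 and 0 were called, with 10 and 6 higher at an unadjusted p below 0.05. Of all genes there 50.7% and 50.2% were positive and 5.45% and 4.26% higher at an unadjusted p below 0.05. In NK cells 15 of 19 were positive, and 3 were called, where 49.2% of all genes were positive and 5.67% called. Of these, Bbc3, which encodes the apoptosis activator PUMA, had 0 and 2 UMIs in healthy libraries and 33 in acute replicate 2, a ratio of 18.6 (95% counting interval 4.76 to 160). Perp, which encodes a desmosomal membrane protein, and Sulf2, which encodes a sulfatase of heparan sulfate, fell by 1.29 and 2.71 on the log2 scale, beside the lower sum of urothelial markers given above, whose part was not tested.

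Trp53 mRNA itself showed no called difference. In all urothelial cells it was at 47.4 and 49.8 CPM in healthy, 41.2 and 40.7 CPM in acute and 49.96 and 35.1 CPM in chronic libraries, and in fibroblasts at 80.1 and 67.6, 65.2 and 79.0, and 67.2 and 56.2 CPM. Its log2 fold change lay between -0.50 and 0.47 across the classes after acute and between -0.50 and 0.02 after chronic injury, with 0 of 11 and 0 of 10 tests at an adjusted or an unadjusted p below 0.05. Mdm4, the partner of Mdm2 in restraining p53, had a log2 fold change of 1.09 in acutely injured cycling basal cells, which did not pass the adjusted threshold. Of the upstream kinases and their partners on a list of 8, 7 were found, and 0 were called in any class or comparison in edgeR, with 3, 4 and 1 of 36 tests in classes that share no cells at an unadjusted p below 0.05 (acute, chronic, and acute against chronic), where 5.20%, 6.02% and 4.76% of all tests were.

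Genes whose pattern was most like that of the 10 were sought by the Pearson correlation, over 48 library and class points from 8 classes, of log2(CPM + 1) centred within each class with the mean profile of the 10 genes. Among 6046 other genes the 5 closest were Dcxr (r = 0.881), Ei24 (0.865), Ephx1 (0.860), Mgmt (0.855) and Sesn2 (0.853), and the median over all genes was -0.04. Dcxr, Ei24, Ephx1 and Sesn2 were on the list of 40, and Mgmt, which encodes the enzyme that removes alkyl groups from guanine, was not. The points share libraries and the lists were chosen with earlier results of these data known, so these values are a description. Each of the 10 genes correlated with the mean of the other 9 with r between 0.613 for Phlda3 and 0.934 for Ccng1.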

How the data were processed

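Bladder mucosa of healthy, acutely and chronically injured mice was measured by droplet single-cell RNA-seq in 6 libraries, 2 per condition. The authors aligned reads to mm10 and counted UMIs with Cell Ranger; the deposited tables hold raw UMI counts per gene and cell. Genes listed in all 6 tables were used (14450, less 112 mitochondrial and ribosomal genes); 1 table ends in an incomplete line. A cell was kept if it had more than 500 genes and less than 10% of its UMIs from mitochondrial genes (55398 cells). Libraries were integrated (sctransform 0.4.2, reciprocal PCA anchors) without the p53 and stress lists and clustered (leidenalg 0.10.2, resolution 0.8). The cells with the highest Scrublet scores were removed as doublets at an assumed rate of 0.8% per 1000 cells (4469, where the tool's own thresholds marked 660), as were clusters rich in them, leaving 49996 cells. Sub-clusters with markers of another type were left out, as were mesenchymal ones of mostly cycling cells or almost wholly from 1 library (3824 cells). The share left out ran from 0.861% (healthy replicate 2) to 14.6% (acute replicate 2) of urothelial cells. In mesenchymal cells it ran from 3.98% (healthy replicate 1) to 16.0% (acute replicate 2). Classes were named from marker lists, and the split of basal from intermediate cells came from a score, with 8.39% of 27934 cells within 0.1 of its threshold.

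Counts were summed per library and class (at least 20 cells). They were tested across libraries with edgeR 4.0.16 (TMM, filterByExpr, quasi-likelihood, Benjamini-Hochberg threshold 0.05). The SE of a log2 value was its absolute size divided by the square root of the quasi-likelihood F statistic. It therefore restates the test and is not a separate measure of spread. A fit held all 6 libraries, but 5 for endothelial cells and 3 for NK cells. The procedure was tested on simulated data, and the outcome, which is not given here, is not used as support for any call. Summed UMIs per library ranged from 24713575 to 36867084 over urothelial cells and from 75266 to 2981821 in fibroblasts. Counting intervals (95%) and the 3-UMI limit cover counting error only. The alternatives were DESeq2 1.42.0, other filters, scalings and cell sets, and leaving out each library. The 10 genes and all lists were chosen with earlier results of these data known. Genes outside the 10 were named where called or by likeness of pattern. Trp53 and Mdm4 were named as well, though edgeR called neither.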

Additional observations from a re-analysis of the deposited data

Results flagged for a closer look

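Some results differed between cell classes under the same contrast. By the test of the difference itself, the acute effect was larger in cycling luminal than in non-cycling intermediate cells by 0.85 for Cdkn1a, 1.10 for Mdm2, 1.37 for Ccng1, 0.98 for Aen, 1.69 for Zmat3, 0.75 for Bax and 0.65 for Trp53inp1, all on the log2 scale. Those of Aen, Bax, Trp53inp1 and Mdm2 did not pass without 1 or more of the healthy libraries. The chronic effect was larger in fibroblasts than over all urothelial cells by 2.02 for Mdm2 and 2.42 for Trp53inp1, and larger in myofibroblasts than over all urothelial cells by 2.55 for Trp53inp1, and each of these 3 calls was lost without chronic replicate 1 and without chronic replicate 2. Zmat3 had a log2 fold change of -0.22 in acutely injured endothelial cells, where the healthy library (6 UMIs) and acute replicate 1 (6 UMIs) held nearly the same level and acute replicate 2 (11 UMIs) a lower one, while its fold change was above 0 in the other classes; this difference was not tested.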

How the results depend on the processing

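Counts below are of the 10 genes called, as acute and chronic against healthy unless stated; edgeR gave 0 and 0 over all urothelial cells, 1 and 0 over the 5 layer and cycling classes, 1 and 1 in fibroblasts, 0 and 0 in myofibroblasts and 3 and 1 over endothelial cells, macrophages and NK cells. For differences of effect it gave 0 and 2 (fibroblast minus urothelial), 0 and 1 (myofibroblast minus urothelial), 0 and 0 (superficial minus basal) and 7 and 0 (cycling luminal minus intermediate). DESeq2 gave 5 and 3 over all urothelial cells, 10 and 9 over the layers, 3 and 3 in fibroblasts and 3 in chronic myofibroblasts, and between 0.0753% and 2.14% of all genes in the comparisons with healthy libraries. Without a low-count filter the counts were 11 and 6 (layers), 2 and 3 (fibroblasts), 3 and 6 (myofibroblasts, 2 for acute against chronic), 8 and 5 (endothelial and immune), and 1 (fibroblast minus urothelial, acute), 2 (myofibroblast minus urothelial, chronic), 1 (superficial minus basal) and 1 (cycling luminal minus intermediate, chronic). Of all genes these fits called 0.352% and 0.173% (layers), 0.184% and 0.134% (fibroblasts), 0.662%, 0.691% and 1.06% (myofibroblasts), 0.716% and 0.604% (endothelial and immune) and 0.160%, 0.314%, 0.488% and 0.642% (the differences). With at least 10 CPM in 2 libraries they were 2 (layers, acute), 0 and 0 (fibroblasts), and 0 and 0 for the chronic stromal differences. With at least 50 cells per library they were 0 and 0 (fibroblasts), 1 and 0 (endothelial and immune) and 0 (fibroblast minus urothelial). At that threshold NK cells and chronic endothelial cells could not be fitted, and chronic fibroblasts kept a single library. Clusters without integration gave 0 for the layers, the fibroblasts and both stromal differences. A cycling threshold of 4 MADs gave 3 and 2 for the layers. Keeping doublets gave 0 and 0 (fibroblasts), 2 (endothelial and immune, chronic) and 0 (fibroblast minus urothelial). Keeping the left-out sub-clusters, chosen after seeing the data, gave 1 for that difference. Without TMM factors they were 0 (fibroblasts, acute) and 2 (myofibroblast minus urothelial), stricter cells gave 0 (fibroblasts, acute), and fits of only the conditions compared gave 0 (layers, acute), 0 and 4 (fibroblasts) and 3 (endothelial and immune, chronic). The other alternatives with all libraries called at most 1.78% of all genes in a class and 8.00% in a difference. The cause of these shifts was not tested, and the counts include tests of Eda2r and Gdf15 in classes without healthy UMIs of them.

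Leaving out 1 library at a time gave 0 to 4 called over all urothelial cells (acute), 0 to 2 over the layers (acute), 0 to 4 and 0 to 6 in fibroblasts (0 to 1 for acute against chronic), 0 to 1 in chronic myofibroblasts, and 0 to 4 and 0 to 3 over endothelial and immune cells. For the differences it gave 0 to 2 and 0 to 3 (fibroblast minus urothelial), 0 to 3 (myofibroblast minus urothelial, chronic), 0 to 1 and 0 to 1 (superficial minus basal), and 3 to 7 and 0 to 1 (cycling luminal minus intermediate). Of all genes these fits called 0% to 1.82% in a class and 0% to 7.27% in a difference. The r of deviations between replicates over 13807 genes was 0.23 for healthy and acute, -0.36 for healthy and chronic and -0.17 for acute and chronic. Each condition has 2 libraries, so these values cannot decide whether libraries were paired. Healthy replicate 1 and acute replicate 1 shared urothelial clusters without integration, as stated above. With a replicate block the counts were 0 (layers, acute), 2 and 3 (fibroblasts) and 0 (endothelial and immune, acute). NK cells could not be fitted with the block, without a healthy library or without acute replicate 2, so their calls drop out of those counts. Endothelial cells could not be compared with healthy ones without healthy replicate 1. DESeq2, the block and fits of only the conditions compared were not run for the differences of effect.

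Of 1260 values of single genes in alternatives, 1147 kept direction and side of the threshold, 60 lost and 51 gained a call, and 2 changed sign: without acute replicate 1, Mdm2 after acute injury was -0.13 over all urothelial cells and -0.059 in myofibroblasts, against 1.13 and 2.24 without acute replicate 2. Shares of cells with a UMI at 2000 in place of 3000 UMIs moved by less than 1 SD in 47 cases and by more in 43. Classes of few cells, 22 fibroblasts in chronic replicate 2 and 24 to 28 chronic endothelial cells, limit precision, as do single libraries in healthy endothelial and acute NK cells.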

Other observations

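Immediate-early and stress genes, which cells often induce while tissue is dissociated, were followed on a list of 22, of which 21 were found. In fibroblasts their median log2 fold change was -0.12 after acute and 0.50 after chronic injury, with 8 and 18 of 21 above 0, and in myofibroblasts it was -0.32 and 0.54, with 4 and 19 of 21 above 0. Over all urothelial cells the medians were -0.33 and -0.26, and in acutely injured cycling luminal cells the median was -0.74, with 2 of 21 above 0. Outside NK cells edgeR called 0 of these genes in any comparison, while 15, 9 and 15 of 189 tests in classes that share no cells had an unadjusted p below 0.05 (acute, chronic, and acute against chronic), of which 14, 6 and 13 were lower, where 5.02%, 6.34% and 5.02% of all tests had. The part of these shifts in the chronic stromal results was not tested. In NK cells, which had a single injured library and 5.67% of all genes called, 6 of 20 passed the adjusted test: Hspa1b and Hspa1a, which encode heat-shock chaperones, rose by 2.20 and 1.89 on the log2 scale, Junb and Klf2, which encode transcription factors, rose by 1.38 and 1.35, and Fosl1 and Egr1 fell by 2.27 and 1.47.

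Genes of the integrated stress response, which also induces Gdf15, showed medians between -1.03 (chronic endothelial cells) and 0.61 (NK cells) against healthy libraries on a list of 12. Slc3a2, an amino acid transporter subunit, rose in NK cells by 1.26 on the log2 scale, among 5.67% of all genes called there. In edgeR 0 others of the list were called in any class, where at most 0.327% of all genes were called against healthy libraries outside NK cells, with 6 and 15 of 82 tests outside NK cells, in classes that share no cells, at an unadjusted p below 0.05 (acute and chronic). Of these 5 and 14 were lower, where 2.12% and 2.90% of all tests were lower at that p.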
